A study of Bos taurus with 21 samples.

Results

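The glucose transporter genes examined here were *SLC2A1*, *SLC2A3*, *SLC2A4*, *SLC2A5* and *SLC2A8*. They are 5 of the 12538 genes that could be named on the array, and were measured by every non-control probe whose RefSeq transcript belongs to 1 of them in the cattle annotation, which was 16 probes of 43653. *SLC2A1* had 3 probes, *SLC2A3* 6, *SLC2A4* 4, *SLC2A5* 1 and *SLC2A8* 2. Each gene is described first by its brightest probe and then by its other probes.

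Muscle RNA of 21 cattle foetuses was hybridised to single-colour Agilent arrays, 1 foetus per array. Their breed was either Blonde d'Aquitaine (BA), French beef cattle of enhanced muscularity in which a *MSTN* mutation is known, or Charolais (CH), the breed of comparison. They were taken at 110 days post-conception (dpc; 3 BA and 2 CH), 180 dpc (2 BA and 3 CH), 210 dpc (3 of each) and 260 dpc (2 BA and 3 CH). Of the 10 BA and 11 CH foetuses, 8 in all were male and 13 female, and each breed came from 2 sires. From 110 to 260 dpc the males were 2, 0, 1 and 0 in BA and 0, 1, 2 and 2 in CH. The BA foetuses of 180 dpc shared a sire, those of 260 dpc shared the other, and no sire served both breeds. Stage and breed differences can thus not be fully told apart from sire and sex. The muscle is *m. Longissimus thoracis* in the sample labels and *m. Semitendinosus* in the study's text. The study states that its BA foetuses were not genotyped for the *MSTN* mutation, so which of them carried it is unknown. The labels name no treatment.

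The SLC2 family encodes the GLUT proteins, which let glucose and related sugars pass through membranes down their gradient. GLUT1, from *SLC2A1*, serves basal uptake in many fetal and dividing cells, and GLUT3, from *SLC2A3*, is a high-affinity form known from neurons, placenta and early embryos. GLUT4, from *SLC2A4*, is the insulin-responsive transporter of muscle and fat, which is held in vesicles inside the cell and moves to the surface when insulin acts or the muscle contracts. GLUT5, from *SLC2A5*, carries fructose, and GLUT8, from *SLC2A8*, sits mainly on inner membranes. In muscle the change from fetal to adult life is known as a passage from GLUT1 to GLUT4.

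All levels below are normalized log2 intensities, with 0 set near the level of the middle probe of an array, and a difference of 1 is a doubling. Different probes bind with different strength, so a level was compared only with levels of the same probe. The arrays held between 29017 and 34501 probes well above background. Muscle fibre markers *ACTA1*, *CKM* and *TNNT3* were well above background on all 21 arrays, and so were *HBA* and *HBB* of red blood cells. Among the 16 transporter probes, 10 were well above background on all 21 arrays. A filter that asks for a mean above 0 in 7 of the 8 groups would have kept 7 of them, from 4 of the 5 genes, and was not applied.

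Between 110 and 260 dpc the insulin-responsive *SLC2A4* rose 9.04-fold, *SLC2A1* fell 4.04-fold and *SLC2A8* fell 1.45-fold, while *SLC2A3* ended close to where it began. *SLC2A5* was well above background on no array. By brightest probe, 1 gene rose and 2 fell at an adjusted p under 0.05 (limma, Benjamini-Hochberg over all probes), where 25.0% of all named genes rose and 26.0% fell. Among the 16 probes, 4 rose, all of *SLC2A4*, and 4 fell, against 21.2% and 22.7% of all probes on the array. The 260 minus 110 dpc difference had a median of 0.09 over all probes. Of all calls 48.3% were higher, which other scalings moved to between 22.7% and 68.2%. Calls in either direction were therefore common on these arrays, and the sizes below say more than the counts.

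*SLC2A4* was nearly the same in all 5 foetuses of the first stage. At 110 dpc its level was 2.77, 2.76 and 2.82 in the BA foetuses and 2.98 and 2.72 in the CH foetuses. By 180 dpc it was 4.34 and 4.24 in BA and 4.8, 5.02 and 4.72 in CH. Every foetus of 180 dpc was above every foetus of 110 dpc. It stood at 5.51, 5.36 and 5.90 in BA and 5.61, 5.47 and 5.02 in CH at 210 dpc, and at 5.94 and 5.87 in BA and 5.98, 6.19 and 6.05 in CH at 260 dpc. The lowest CH foetus of 210 dpc lay just under the highest CH foetus of 180 dpc, and the highest BA foetus of 210 dpc lay within the range of 260 dpc.

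The rise was 3.18 ± 0.13 (SE of the fitted difference) with an adjusted p of 5.11e-11. Exact permutation of the stages within each breed gave p = 0.01, two-sided, the smallest that the 100 arrangements allow. The largest part of the rise fell in the first interval, which was also the longest. The rise was 1.75 between 110 and 180 dpc, 0.91 between 180 and 210 dpc and 0.51 between 210 and 260 dpc. These steps are 55.2%, 28.7% and 16.1% of the whole, and are sizes and not rates per day. Each of these steps passed the test (adjusted p 3.98e-07, 0.000836 and 0.00585), where 13.2%, 3.62% and 24.0% of all probes did. With quantile normalization the last step was 0.30 and did not pass (adjusted p 0.0894), and on the authors' unscaled value table it was 0.10 (adjusted p 0.739). The middle step did not pass on that table either (0.91, adjusted p 0.0629).

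The other probes of *SLC2A4* rose as well. Probe A_73_P037951 gained 3.1 ± 0.14 and followed the brightest probe over the 21 arrays with a Pearson r of 0.99. Probe A_73_P102656 gained 1.31 ± 0.17 (adjusted p 1.13e-05), with no call for the middle step (0.41, adjusted p 0.208) or the last (−0.04, adjusted p 0.892). Its levels at 210 dpc, 1.54 to 1.90, covered those at 260 dpc, 1.51 to 1.88, except at the lowest end. Probe A_73_P108451 was well above background on no array of 110 dpc, so that its level at 260 dpc was at least 5.59-fold higher in BA and at least 6.94-fold higher in CH. The probes therefore gave the same direction and different sizes.

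**Figure D1:**
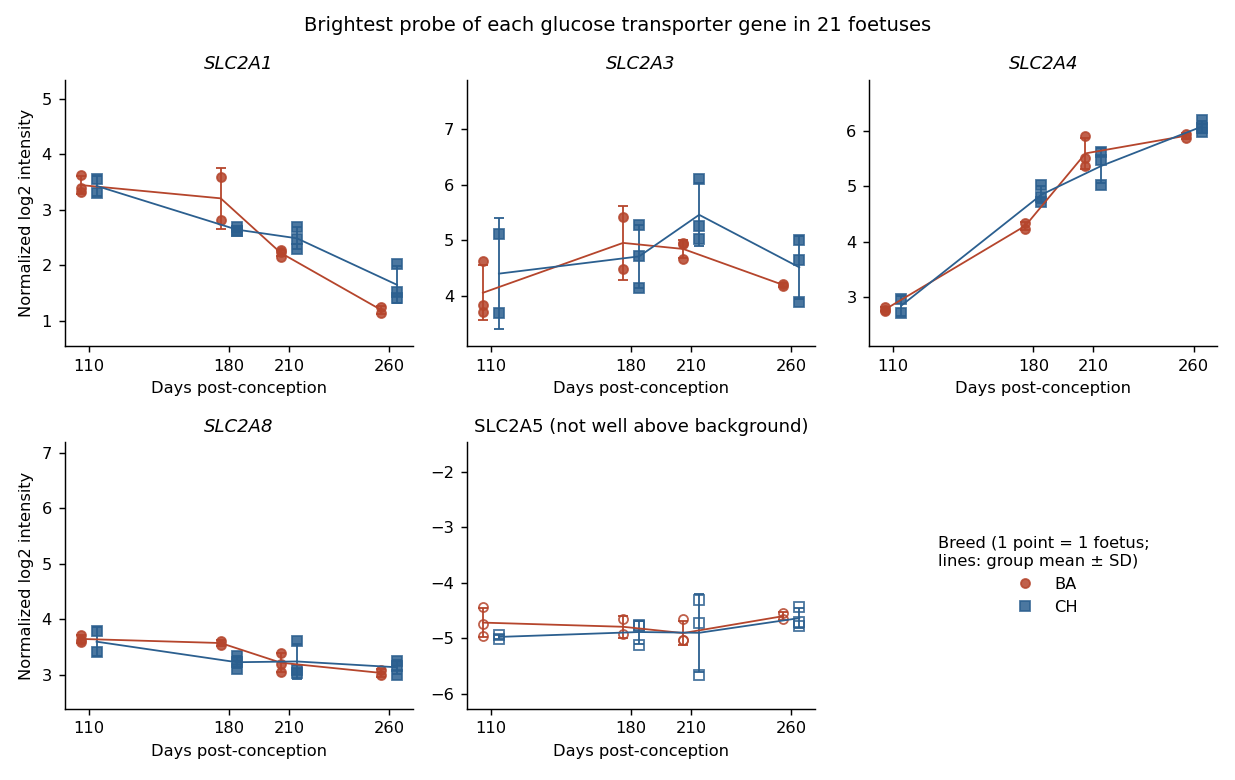
Normalized log2 intensity of the brightest probe of each gene (vertical axis, the same span in each panel) against days post-conception, 1 point per foetus, with the mean and SD of each breed. *SLC2A4* climbed from 2.72 to 2.98 at 110 dpc to 5.87 to 6.19 at 260 dpc, *SLC2A1* came down from 3.30 to 3.62 to 1.14 to 2.03, and *SLC2A3* spread widely within stages; *SLC2A5* was at background throughout.

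*SLC2A1* moved the other way, and by its brightest probe the last step was the largest. The stages are not equally spaced, so the sizes of its steps do not compare rates. At 110 dpc it measured 3.33, 3.39 and 3.62 in BA and 3.56 and 3.30 in CH. At 180 dpc it measured 3.60 and 2.81 in BA and 2.62, 2.62 and 2.70 in CH. The BA foetus at 3.60 was still at the level of 110 dpc, and the other 4 were below all foetuses of 110 dpc. At 210 dpc the BA values were 2.16, 2.23 and 2.28 and the CH values 2.47, 2.29 and 2.69, and at 260 dpc they were 1.14 and 1.25 in BA and 1.40, 1.51 and 2.03 in CH. All foetuses of 260 dpc lay below all others.

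The fall of *SLC2A1* was −2.02 ± 0.15 (adjusted p 3.19e-08), and the exact permutation p was 0.01. The steps were −0.51 to 180 dpc, −0.57 to 210 dpc and −0.93 to 260 dpc, or 25.5%, 28.3% and 46.2% of the whole. The last step passed with an adjusted p of 0.000228, though in female foetuses alone it was −0.72 and did not pass (adjusted p 0.0537), and the first 2 passed narrowly (adjusted p 0.0362 and 0.0405). Without BA 180 dpc replicate 2, the foetus at 2.81, the first step was −0.32 (adjusted p 0.199), and without BA 180 dpc replicate 1, at 3.60, the second was −0.37 (adjusted p 0.204). Over the 21 fits that leave out 1 array, the first step lost its call in 8 and the second in 14. In the other fits that lost these calls the first step stayed between −0.58 and −0.45 and the second between −0.58 and −0.52, so that most of the losses came with little change in size. The whole fall ran between −2.11 and −1.95 over the 21 fits. On the authors' value table the first 2 steps were −0.49 and −0.57 and did not pass (adjusted p 0.391 and 0.541). With sire as a block neither passed (adjusted p 0.0642 and 0.136), and with sex as a covariate the second did not (adjusted p 0.0733).

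Both other probes of *SLC2A1* were dim. Probe A_73_P033201 fell by 1.86 ± 0.48 (adjusted p 0.00524), and in BA, where it was not well above background at 260 dpc, it was at least 3.83-fold lower than at 110 dpc. In CH at 260 dpc its values ran from −3.32 to 0.40, so that 1 foetus stood above every foetus of 110 dpc. Probe A_73_P346251 fell by 1.13 ± 0.25 and was not well above background at 260 dpc in either breed, at least 1.66-fold lower in BA and 1.71-fold lower in CH. The successive steps were −0.64, −0.67 and −0.54 for A_73_P033201, the last being the smallest, and −0.33, −0.35 and −0.45 for A_73_P346251. None of these steps passed.

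*SLC2A3* differed most between arrays of the same age and breed. At 110 dpc it was 3.83, 3.71 and 4.62 in BA and 5.10 and 3.69 in CH, and at 180 dpc it was 5.42 and 4.48 in BA and 5.28, 4.71 and 4.14 in CH. At 210 dpc it was 4.65, 4.94 and 4.93 in BA and 6.10, 5.02 and 5.25 in CH. The values of 260 dpc, 4.17 and 4.21 in BA and 4.65, 3.88 and 5.0 in CH, fell inside the range of 110 dpc. The SD within groups was 0.55 over all 8 groups, larger than that of 96.5% of the 26221 probes well above background on all arrays. For *SLC2A4*, *SLC2A1* and *SLC2A8* it was 0.19, 0.23 and 0.18.

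The means of *SLC2A3* went up and came back, with steps of 0.61, 0.32 and −0.80, of which none passed (adjusted p 0.292, 0.721 and 0.0843). The whole difference of 260 minus 110 dpc was 0.13, with a 95% interval of −0.59 to 0.84 and an adjusted p of 0.784, an interval that still allows a rise of up to 1.79-fold as well as a fall. Without CH 110 dpc replicate 1, the foetus at 5.10, the difference was 0.48, and without CH 110 dpc replicate 2 it was −0.23. A test over all 4 stages gave an adjusted p of 0.0798. With the expression filter, normexp correction or the arrays of 210 and 260 dpc alone the last step passed (adjusted p 0.0397, 0.0399 and 0.0473), and on the value table it was −1.21 (adjusted p 0.0216).

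The large spread of *SLC2A3* was seen by several probes at once. The probes A_73_P425526, A_73_P452126 and A_73_105268 followed the brightest over the 21 arrays with r of 0.99, 0.93 and 0.90. All 4 placed CH 110 dpc replicate 1 above CH 110 dpc replicate 2, and their 260 minus 110 dpc differences lay between 0.13 and 0.32 with none called. The remaining 2 probes were well above background on only 4 and 3 arrays. Slide 6 made up scan day 3. There the brightest probe read 4.62, 5.42 and 4.94 in BA at 110, 180 and 210 dpc and 6.10 in CH at 210 dpc. Each was the highest value of its group. Probes of 1 array share its slide and scan day, so in this spread the foetus and the slide cannot be told apart.

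*SLC2A8* had the smallest change of the genes called. Its level at 110 dpc was 3.59, 3.63 and 3.72 in BA and 3.41 and 3.78 in CH, and at 260 dpc it was 3.08 and 2.99 in BA and 3.25, 3.16 and 3.00 in CH. These stages did not overlap. At 180 dpc it was 3.53 and 3.61 in BA and 3.23, 3.11 and 3.34 in CH, and at 210 dpc 3.05, 3.20 and 3.4 in BA and 3.02, 3.61 and 3.09 in CH. The fall over the whole period was −0.54 ± 0.12 (adjusted p 0.00192, exact permutation p 0.01), and no single step passed. With slide as a block it was −0.55 and did not pass (adjusted p 0.0790), and the second probe, A_73_P041216, gave −0.30 (adjusted p 0.121).

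*SLC2A5* read between −5.67 and −4.31 on its single probe and was not well above background on any of the 21 arrays. The fructose transporter was thus not detectable with this probe, and no fold is given for it.

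**Figure D2:**
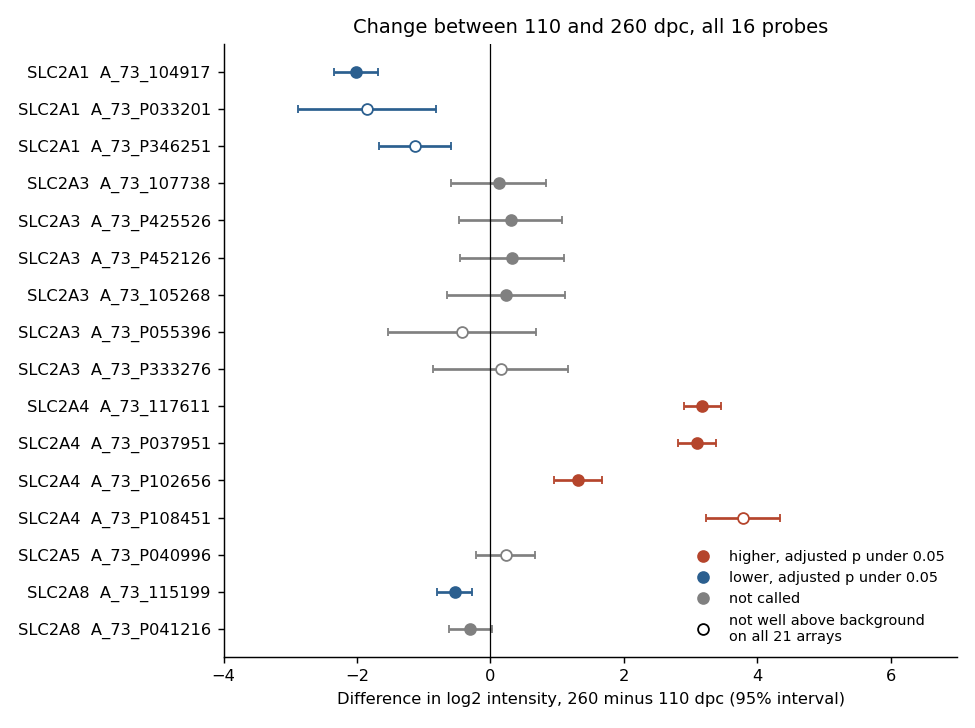
Difference of 260 minus 110 dpc in log2 intensity with its 95% interval (horizontal axis) for each of the 16 probes, breeds averaged. All 4 *SLC2A4* probes lie to the right of 0 and all 3 *SLC2A1* probes to the left, and the 6 *SLC2A3* intervals include 0; open points were not well above background on all 21 arrays, so that their size is a fitted value and no bound.

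Within each foetus, the difference between the *SLC2A4* probe and the *SLC2A1* probe describes the balance of these genes in RNA, not protein. The scaling of the array cancels in this difference. Its zero has no meaning, because the probes differ, and only its change is described, with no test. It ran from −0.80 to −0.56 at 110 dpc, from 0.74 to 2.41 at 180 dpc, from 2.32 to 3.63 at 210 dpc, and finally from 4.02 to 4.8 at 260 dpc. The first and the last stage were apart from their neighbours, and 1 CH foetus of 210 dpc fell within the range of 180 dpc. From 110 to 260 dpc it gained 5.38 in BA and 5.01 in CH, a mean of 5.19, which is a 36.6-fold shift in the ratio of the intensities. This size belongs to the brightest probes alone. The fitted changes of the other probes were 1.31 to 3.79 for *SLC2A4* and −1.86 and −1.13 for *SLC2A1*, so that other pairs would give other sizes.

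At 180 dpc the balance was 0.74 and 1.42 in the BA foetuses and 2.18, 2.41 and 2.02 in the CH foetuses, whereas at 210 dpc it was 3.35, 3.13 and 3.63 in BA and 3.14, 3.18 and 2.32 in CH. The BA values of 210 dpc, from other foetuses, did not all lie below the CH values as those of 180 dpc did. Against *SLC2A3* the balance of *SLC2A4* gained 3.05, of which 2.99 in BA and 3.11 in CH, and in it 180 dpc overlapped with both 110 and 210 dpc. *SLC2A3* gained 2.14 on *SLC2A1*.

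**Figure D3:**
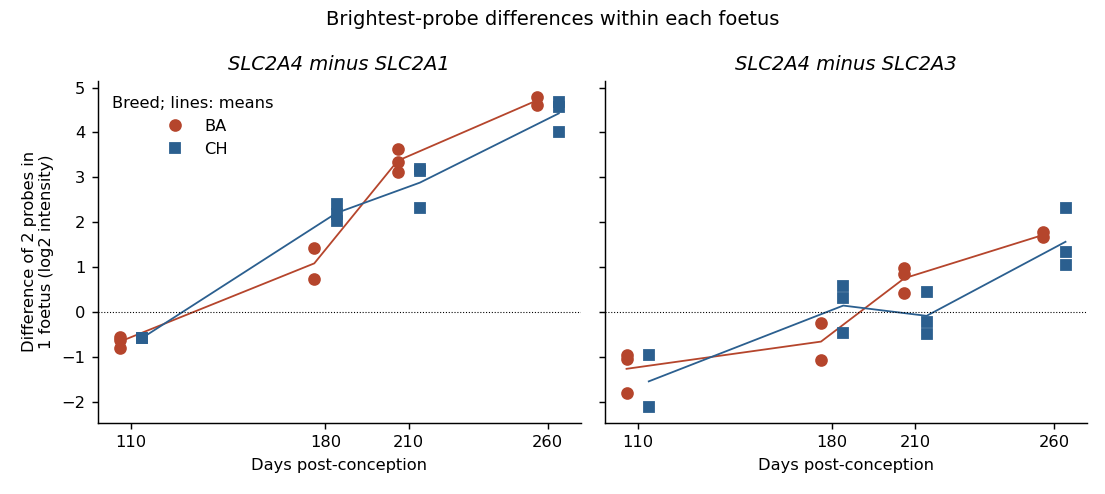
Difference between the brightest *SLC2A4* probe and the brightest *SLC2A1* (left) or *SLC2A3* probe (right) in each foetus, in log2 intensity, against days post-conception, 1 point per foetus and lines through the breed means. The left panel climbs from −0.80 to −0.56 at 110 dpc to 4.02 to 4.8 at 260 dpc, and at 180 dpc the 2 BA foetuses lie below the 3 CH foetuses.

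Both breeds showed the change on their own. *SLC2A4* rose 8.74-fold in BA (3.13 ± 0.18) and 9.36-fold in CH (3.23 ± 0.18). *SLC2A1* fell in both, with differences of −2.25 ± 0.22 in BA and −1.78 ± 0.22 in CH. *SLC2A8* fell by 0.61 in BA (adjusted p 0.0121), and the difference of −0.46 in CH missed the threshold (adjusted p 0.0527). The gene passed in CH under several alternatives, among them quantile normalization and both filters, and it lost its call in BA in female foetuses alone (adjusted p 0.0735), with slide as a block (0.0939), without BA 260 dpc replicate 2 (0.0916) and by its second probe (0.239). Of the 16 probes 8 passed in BA, against 33.3% of all probes, and 5 passed in CH, against 32.7%. That *SLC2A8* and the dim *SLC2A1* probes passed in BA alone does not make the breeds differ: the difference between the breeds in the 260 minus 110 dpc change passed for 0 of the 16 probes (limma, lowest adjusted p 0.959, 0 at an unadjusted p under 0.05), against 0.00687% of all probes. For *SLC2A4* that difference was −0.10, with a 95% interval of −0.64 to 0.45, and for *SLC2A1* −0.47, with −1.12 to 0.18.

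No transporter was called between BA and CH. Averaged over the stages, BA minus CH was −0.03 for *SLC2A1* (95% interval −0.26 to 0.19), −0.14 for *SLC2A4* (−0.33 to 0.05), 0.07 for *SLC2A8* (−0.11 to 0.26) and −0.26 for *SLC2A3* (−0.75 to 0.23). None of the 16 probes passed in limma (lowest adjusted p 0.470, with 1 probe at an unadjusted p under 0.05), where 0.0733% of all probes did. That probe was A_73_P041216 of *SLC2A8*, at 0.26. A two-sided exact test that permuted breeds inside each stage gave p of 0.815, 0.172, 0.400 and 0.287 for the brightest probes of these 4 genes in the same order. For *SLC2A3* the interval still allows a level up to 1.68-fold lower in BA.

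At single stages again 0 of the 16 probes passed, at 110 dpc (0.0206% of all probes), 180 dpc (0.0275%), 210 dpc (0.00229%) and 260 dpc (0.0137%). The unadjusted p was under 0.05 for 2 probes at 180 dpc and for none at the other stages. These 2 were the brightest probes of *SLC2A4* and *SLC2A1*. At 180 dpc *SLC2A4* was −0.56 ± 0.18 in BA against CH (adjusted p 0.700) and *SLC2A1* 0.56 ± 0.22 (adjusted p 0.772), with breeds that did not overlap. The *SLC2A1* value was 0.17 without BA 180 dpc replicate 1 and 0.96 without BA 180 dpc replicate 2, and that of *SLC2A4* lay between −0.63 and −0.47 with any 1 array left out. Another probe of *SLC2A4*, A_73_P037951, gave −0.37, whereas A_73_P102656 and A_73_P108451 gave 0.23 and 0.22, and all 3 probes of *SLC2A1* were higher in both BA foetuses than in the CH foetuses.

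Groups of 2 and 3 arrays often fail to overlap. At 180 dpc 7 of the 16 probes did not overlap between the breeds, against 22.5% of all probes. The numbers were 1 probe at 110 dpc against 25.0%, 3 at 210 dpc against 9.10% and 4 at 260 dpc against 15.9%. Probes of the same gene are not independent. By brightest probe, 0 of the 5 genes did not overlap at 110 dpc, 3 at 180 dpc, 2 at 210 dpc and 2 at 260 dpc. With 2 foetuses against 3, an exact test of 1 stage cannot pass at 0.05.

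**Figure D4:**
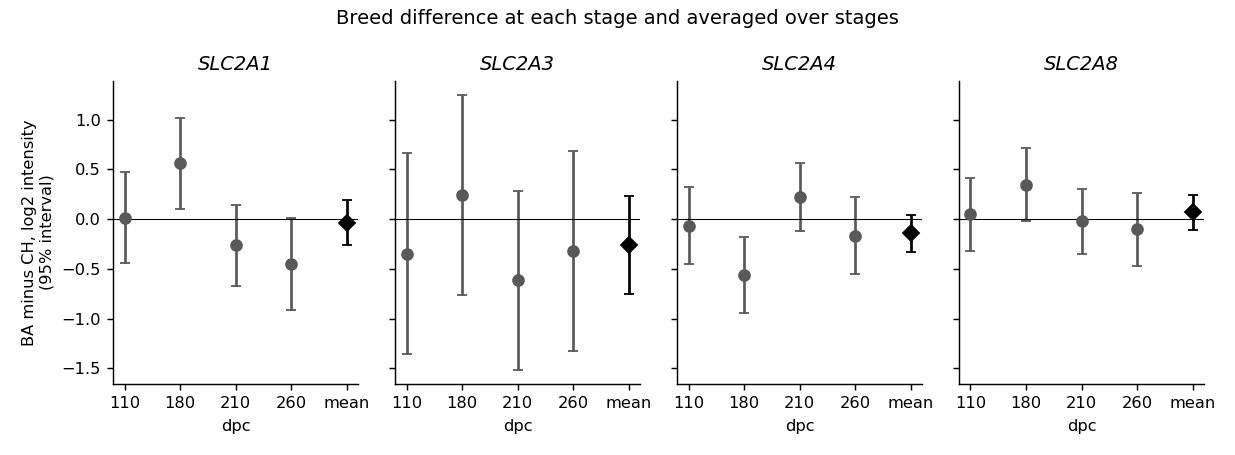
BA minus CH in log2 intensity with its 95% interval (vertical axis) at each stage and as the mean over stages (diamond) for the brightest probe of each detected gene. At 180 dpc *SLC2A1* stands at 0.56 and *SLC2A4* at −0.56, their largest departures from 0, and the means over the stages all have intervals that include 0.

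The direction of the main changes was also seen within slides and scan days, over the stages that each held. There were 6 slides and 3 scan days, and 5 of the slides held arrays of both breeds. Only slide 5 held both 110 and 260 dpc, as 1 BA array of 110 dpc and 1 CH array of 260 dpc. The other slides spanned 110 to 180, 210 to 260 or 110 to 210 dpc, and scan day 3 ran from 110 to 210 dpc. Breeds were pooled in these stage differences. Within each slide the latest minus the earliest stage was above 0 for *SLC2A4* on 6 of 6 slides (0.51 to 3.42) and below 0 for *SLC2A1* on 6 of 6 (−1.82 to −0.64), and both held on 3 of 3 days. *SLC2A3* was above 0 on 4 of 6 slides (−0.82 to 1.59). Within slides its BA minus CH difference was below 0 in 6 of 6 comparisons of 1 stage (−1.39 to −0.22), and within scan days in 5 of 6. On slides each of these set 1 array against 1. For *SLC2A1* and for *SLC2A4* the difference was above 0 in only 1 of 6 on slides and 1 of 6 on days, and for *SLC2A8* in 4 and 3. These counts have no share over all probes beside them, and *SLC2A3* was not called between the breeds.

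Some of the cell type marker lists moved with the same stages, and the counts of all lists too stand beside 25.0% of all named genes higher and 26.0% lower. The muscle fibre list had 5 of 7 genes higher and 1 lower at 260 dpc, and its mean level was 9.13 to 9.52 in the foetuses of 110 dpc and 10.60 to 10.76 in those of 260 dpc. Its first genes *ACTA1* and *CKM* rose by 2.57 and 3.11. Over the 21 arrays the mean level of this list had an r of 0.96 with *SLC2A4* and −0.89 with *SLC2A1*, a description, since the points share the stages. In bulk muscle, fewer cells of a type and less RNA per cell cannot be told apart.

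The cycling list had 3 of 3 genes lower, from 1.38 to 1.76 at 110 dpc to −1.85 to −0.89 at 260 dpc, with an r of 0.88 with *SLC2A1*. The red blood cell list had 4 of 7 lower, *HBA* at −1.64 and *HBB* at −2.46, from 0.63 to 1.30 down to −0.48 to 0.74, with an r of 0.62 with *SLC2A1*. *PECAM1* of endothelium rose by 0.48 with 3 of 5 higher and 1 lower (2.94 to 3.25 at 110 dpc and 2.94 to 3.31 at 260 dpc), and that list had an r of 0.58 with *SLC2A3* over all arrays and 0.25 within groups, where the nerve sheath and leukocyte lists had 0.44 and 0.36. Fibroblast genes were 3 of 5 lower (7.06 to 7.93, then 6.47 to 7.15), with *COL1A1* at −0.25 and not called. The nerve sheath list had 2 of 5 higher (0.71 to 1.12, then 0.82 to 1.78), the leukocyte list 2 higher and 2 lower of 7 with *PTPRC* at 0.19 and not called (−0.60 to 1.00, then −0.18 to 0.25), and the adipocyte list 1 of 4 higher with *PLIN1* at 0.43 and not called (−2.73 to −0.15, then −1.43 to 0.88). The part of these cells in the transporters' changes was not tested. No marker was called between the breeds.

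Other genes of glucose transport were taken from 8 lists of 70 genes, of which 55 had a named probe. Between 110 and 260 dpc 20 of the 55 rose and 7 fell, and 28 did not pass. The counts of these lists stand beside 25.0% higher and 26.0% lower among all named genes. None was called between the breeds on average.

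Among the other family members 1 of 6 rose and 1 fell. *SLC2A12*, which encodes GLUT12, another transporter of muscle and fat, was well above background on no array of 110 dpc and was well above it on all 5 arrays of 260 dpc. Its level was at least 2.28-fold higher in BA and at least 2.73-fold higher in CH. *SLC2A13*, which encodes a myo-inositol carrier, fell by 0.65 ± 0.12. *SLC2A2* and *SLC2A11* were not well above background on any array.

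The insulin signal to GLUT4 had 4 of 12 genes higher and 2 lower, with a median difference of −0.06. Its largest changes were opposed. *TBC1D4* (AS160), the Rab-GTPase-activating protein that holds GLUT4 vesicles back until AKT phosphorylates it, rose by 1.21 ± 0.13. *TBC1D1*, its close relative, fell by 1.73 ± 0.12, the largest fall of the 55 genes. *AKT2*, the AKT form known for insulin action, rose by 0.91 ± 0.19, and *RAC1*, which acts on the actin step, fell by 0.36 ± 0.10.

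Of the vesicle and docking genes 3 of 9 rose and none fell, with a median of 0.21. *RHOQ*, which encodes the small GTPase TC10, rose by 1.21 ± 0.10 and *VAMP3*, a vesicle SNARE, by 0.46 ± 0.08. *VAMP2*, the SNARE best known for GLUT4 vesicles, had a difference of −0.01 and did not pass. It was named after its value was seen.

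Regulators of the *SLC2A4* gene had 5 of 8 higher and none lower, with a median difference of 0.64 against 0.09 over all probes. *HDAC5*, a deacetylase that binds MEF2 factors and represses their targets, had the largest rise, 2.04 ± 0.11, and *PPARGC1A*, a coactivator that raises *SLC2A4* in muscle cells, rose by 1.37 ± 0.22. The list thus held a known repressor and known activators that went up together.

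AMPK is the energy sensor that acts on GLUT4 in contracting muscle. Of its subunits 3 of 6 rose and none fell. *PRKAG3*, the regulatory subunit of fast glycolytic fibres, rose by 2.26 ± 0.24 and *PRKAB2*, the muscle form of the beta subunit, by 1.38 ± 0.19.

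Among regulators of GLUT1, 2 of 6 rose and 1 fell. *TXNIP*, which encodes an arrestin-like protein that takes GLUT1 from the cell surface and lowers glucose uptake, rose by 2.24 ± 0.14, while *EPAS1*, a hypoxia-inducible factor, rose by 1.10 ± 0.25 and was not above background on 3 of 5 arrays of 110 dpc. *GIPC1* was called lower, but was well above background on no array of 110 or 260 dpc. Of the hexokinases only *HK1*, the housekeeping form, passed, at −0.54 ± 0.08 of 3 genes measured. In the fructose and polyol list 2 of 5 rose and 2 fell: *KHK* rose by 0.29, and *AKR1B1* and *TKFC* fell, with differences of −0.69 and −0.50.

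**Figure D5:**
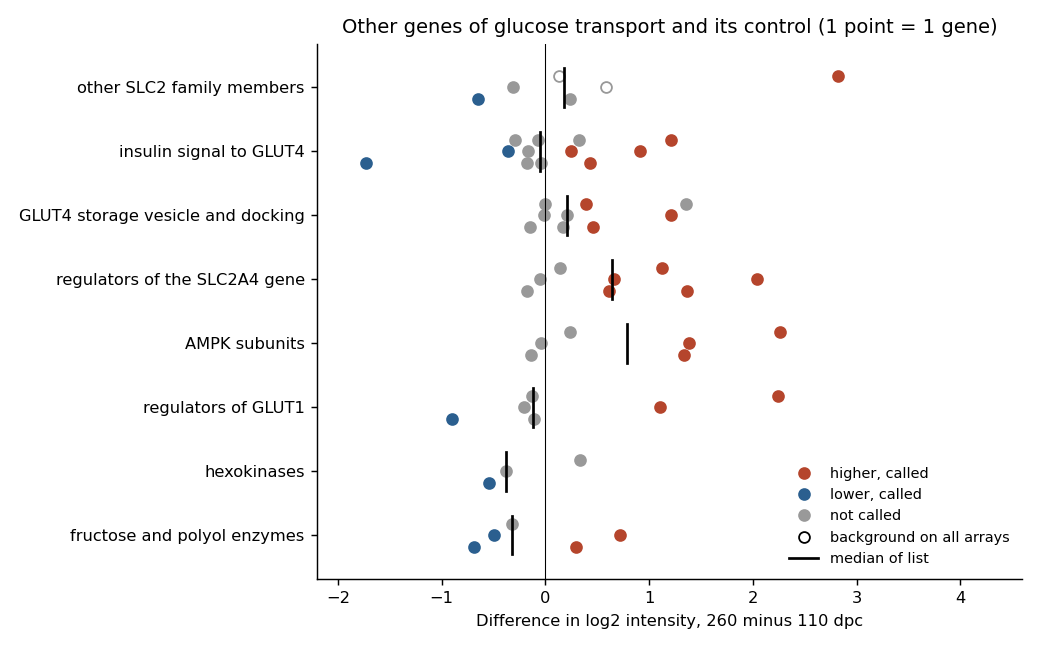
Difference of 260 minus 110 dpc in log2 intensity (horizontal axis) for the 55 genes of the 8 lists, 1 point per gene by its brightest probe, with the median of each list as a bar. Called genes lie mostly to the right of 0 for the *SLC2A4* regulators and AMPK subunits, whereas *TBC1D1* stands alone at −1.73 in the insulin list.

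The genes whose pattern was most like each transporter were sought by Pearson r over the 21 arrays among 9216 genes well above background on all of them. For *SLC2A4* these were *ACTN3*, *RPL3L*, *TRIM7*, *TMOD4* and *GADL1* (r 0.99 to 0.98). *ACTN3* encodes the alpha-actinin of fast fibres and *TMOD4* a thin-filament cap of skeletal muscle, and they rose by 6.93 and 5.66. For *SLC2A1* they were *PCGF2*, *RNMT*, *BID*, *SCG5* and *APBB1* (r 0.95 to 0.94), all lower at 260 dpc, with *SCG5* at −4.47. Both sets followed the stages, and within groups the r of the 10 genes was only 0.06 to 0.50.

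*APOLD1*, *TBCC*, *ERO1A* and *LBH* had r of 0.86 to 0.74 with *SLC2A3*, and within groups r was 0.76 to 0.67. They were picked by r over these same arrays, and *SLC2A3* changed little over the stages. A high r within groups was thus largely set by the choice, and effects of the slide cannot be told apart from the foetus. *APOLD1* encodes an endothelial protein of the early response and *ERO1A* an oxidase of the endoplasmic reticulum. *SLC2A8* was most like *NUP93*, *TNPO2*, *SCAND1*, *PDCD11* and *FBXO15* (r 0.87 to 0.85), with 0.50 to 0.78 within groups. Between the transporters themselves, *SLC2A4* and *SLC2A1* had an r of −0.88 over all arrays and −0.02 within groups, and *SLC2A1* and *SLC2A3* 0.06 over all arrays and 0.56 within groups.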

How the data were processed

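RNA from muscle of 21 foetuses was labelled with Cy3 and measured on single-colour 4x44K bovine arrays. The deposited scanner files hold spot intensity values that the authors extracted with Agilent Feature Extraction 10.7 (per the submitters' processing notes and the study's methods), detrended, with no background subtracted and no scaling between arrays. The authors' deposited value table holds log2 values, of which 99.98% lay within 0.01 of the log2 of the processed intensity. Probes not well above background have no value there.

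Control spots were left out, as were 258 spot values with an outlier mark, and spots of a probe were averaged. No spot value was saturated. From the log2 intensities the 75th percentile of each array (525 to 1174 intensity units) was taken away and 2.69 added to all arrays alike. The number of arrays per group, 2 or 3, limits the precision. Probes were named through their RefSeq accession in the gene table of cattle assembly ARS-UCD2.0, which named 26628 of the 43653 probes (61%). No positions are given, since the array's design used an older assembly, and probe sequences were not used here.

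The 8 breed and stage means were fitted to all probes in R 4.3.3 by limma 3.58.1, with data.table (version 1.17.8) and jsonlite (version 2.0.0), with no filter, 13 residual and 2.12 prior degrees of freedom. A probe was called at a Benjamini-Hochberg adjusted p under 0.05. Single values were compared by exact permutation, two-sided. The labels give separate animals, so p-values measure the spread between foetuses. A probe not well above background on any array of a group was given a bound, the mean of the brighter group over the mean, per array, of the higher of its own signal and the lowest signal among probes well above background. The fits were tested on simulated data. Figures were drawn with matplotlib 3.10.9 in Python 3.11.15.

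Named genes were the 5 members, up to 2 genes per list and direction with the largest called change of 260 minus 110 dpc, the first marker genes, and the 5 genes most like each detected member; a few that these rules name are not reported here. The members, lists and tests were chosen with earlier results of these data known. The genes *SLC2A7*, *SLC2A9*, *INSR*, *IRS1*, *IRS2*, *PDPK1*, *LNPEP*, *SORT1*, *LRP1*, *MEF2D*, *SLC2A4RG*, *PRKAG2*, *HK2*, *HK3*, *ADIPOQ*, *MKI67* and *TOP2A* of the lists were not analysed here. The alternatives were normexp correction (offset 50), quantile or median scaling, the value table, 2 filters, females alone, sex as a covariate, blocks by slide, scan day, sire or replicate number, a robust variance with a trend, arrays of the compared stages alone, each array left out in turn, and other probes of the gene. Such probes were run singly only where well above background on all arrays.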

Additional observations from a re-analysis of the deposited data

How the results depend on the processing

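The 260 minus 110 dpc changes of *SLC2A4* and *SLC2A1* kept their direction and their call under all 38 and 36 alternatives run for them. They lay between 1.31 and 3.39 and between −2.41 and −1.67. Other probes were run singly only where well above background on all arrays. That left out A_73_P108451 of *SLC2A4* (fitted change 3.79) and A_73_P033201 and A_73_P346251 of *SLC2A1* (−1.86 and −1.13). Not all of these sizes lie within the ranges given. No transporter was called between the breeds on average under any of the 33 alternatives run for that comparison. *SLC2A8* was no longer called with slide as a block (−0.55, adjusted p 0.0790) or by its second probe (−0.30, adjusted p 0.121). *SLC2A3*, never called, was −0.26 on the authors' value table, −0.27 in BA and −0.25 in CH alone, where the median of all probes was −0.37 against 0.09 in the scaled data. That table is not scaled between arrays. The median was 0.22 with normexp correction and 0.19 with median scaling, and of all calls 68.2%, 57.3% and 22.7% were higher with normexp, median scaling and the value table, against 48.3%.

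Other uncalled values turned sign. *SLC2A3* was −0.11 in BA with sex as a covariate and −0.0072 in CH with sire as a block. *SLC2A1* was 0.020 in BA minus CH on the value table. The breed difference of the *SLC2A4* change, −0.10, became 0.034 with slide as a block, 0.051 with scan day as a block, 0.22 by probe A_73_P037951 and 0.033 by the mean of all probes. Probe A_73_P102656 gave −0.040 for *SLC2A4* from 210 to 260 dpc, 0.077 for BA minus CH and 0.23 for it at 180 dpc. *SLC2A8* from 210 to 260 dpc was 0.0006 with normexp correction and 0.13 by its second probe.

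With 1 array left out, *SLC2A3* lay between −0.23 and 0.48 (−0.031 to 0.43 in BA, −0.59 to 0.82 in CH), *SLC2A1* BA minus CH between −0.13 and 0.064, and the breed difference of the *SLC2A4* change between −0.23 and 0.030. The balance of *SLC2A4* over *SLC2A1* gained 4.72 with normexp correction, against 5.19. Over all probes, 12751 were called for 260 minus 110 dpc with slide as a block, against 19167. For BA minus CH 32 probes were called, and 53 with normexp correction, 51 with quantile normalization, 17 on the value table, 72 and 57 with the expression and detection filters, 93 in female foetuses alone, 12 with slide as a block, 73 with a trended variance and 22 to 65 with 1 array left out. The causes were not tested.

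Replicate numbers do not pair the foetuses. After centring on the groups, the correlation between 2 arrays had a median of 0.0019 over the 66 pairs that share a number and −0.0062 over the 126 other pairs. With the replicate block 18973 probes were called for 260 minus 110 dpc and 24 for BA minus CH, *SLC2A4* rose by 3.18 and *SLC2A1* fell by 2.02, and no transporter gained or lost a call. Where leaving out an array left 1 in a group, limma assumes that it varies like the other groups. Signal over background limits *SLC2A5*, the dim probes of *SLC2A1* and *SLC2A3*, *SLC2A12* and *GIPC1*.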
